A study of Mus musculus with 6 samples.

Results

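*Kit* and 9 genes that work with it or mark mast cells were followed in the RNA of whole tail tendons. The 10 genes are *Kit*, its ligand *Kitl*, and *Cpa3*, *Mcpt4*, *Cma1*, *Tpsb2*, *Ms4a2*, *Fcer1a*, *Gata2* and *Hdc*, and all 10 were found by symbol among the 44788 symbols of the count table. *Kit* was chosen by its lower counts in the knockout tendons in this same table, so its values are given as a description with no test. The other 9 were named for their function, with earlier results of these data already known. The question was whether the mast cell genes were lower together with *Kit*.

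Tail tendons of wild-type (WT) mice and of mice without the tendon transcription factor Mohawk (*Mkx*-/-) were compared by RNA sequencing, with 3 libraries of each genotype. All mice were of the C57BL/6 strain, and no treatment is named. The labels give an age of 3 weeks, which differs from the age in the published text, and neither source says which part of *Mkx* was deleted. *Mkx*-/- mice are a model of heterotopic ossification, bone formation inside the tendon, and no driver is named that would limit the loss to tendon cells, so a change cannot be assigned to one cell type. Nothing in the labels says whether the libraries came from separate animals, and p-values measure the spread between these libraries only.

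KIT is a receptor tyrosine kinase of the cell surface, and stem cell factor, the product of *Kitl*, is its ligand. Mast cells keep KIT throughout life and need its signal to survive in connective tissue, where they store carboxypeptidase, chymases, tryptases and histamine in granules. Melanocytes, blood progenitors and interstitial cells of Cajal also carry KIT, so *Kit* RNA alone does not name a cell type.

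Libraries held 10835070 to 14160301 counts, and values are given as counts or as CPM, the counts after TMM scaling to one common library size. At this depth 3 counts equal 0.211 to 0.294 CPM, and values that rest on a few counts carry a large counting error. *Mkx* itself read 135 to 144 CPM in WT tendons and 38.9 to 56.8 CPM in *Mkx*-/- tendons (edgeR's quasi-likelihood test, Benjamini-Hochberg adjusted p = 0.00183). Tendon was well represented, with *Col1a2*, a chain of type I collagen, at 112370 CPM or more in every library. Of 9 tendon genes, edgeR called 1, *Thbs4*, the matrix protein thrombospondin 4, which read 3893 to 5095 CPM in WT and 9856 to 12054 CPM in *Mkx*-/- libraries (adjusted p = 0.0118, lost without WT replicate 2 or 3). DESeq2 called *Thbs4* higher and 2 lower, *Col1a2* and *Scx*, with log2 fold changes of -1.02 and -1.15 (DESeq2, adjusted p = 4.06e-07 and 0.0146). *Col1a1*, *Col1a2* and *Sparc* together held 41.97 to 48.47% of the counts in WT libraries and 28.35 to 34.77% in *Mkx*-/- libraries. WT replicate 3 had 1 count of *Xist* and 301 of the Y-linked *Ddx3y*, whereas the other 5 libraries had 1289 to 1866 counts of *Xist* and 0 of *Ddx3y*, so sex was not balanced between the genotypes.

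The windows of 250 bases before the start of transcription were searched for the motif of GATA factors, since GATA2 is a regulator of mast cell genes. The motif was searched as AGATAA and its variant AGATAG, and likewise as TGATAA and its variant TGATAG, on both strands. The E-box of the factor MITF was searched as CATGTG and in the form CACGTG, also on both strands. The RefSeq promoter table (build GRCm38.p6) held 9 of the 10 members, all but *Tpsb2*, in 11 windows. Shown are *Kit*, as the gene of the group with the clear difference between genotypes, and *Cpa3* and *Mcpt4*, as a carboxypeptidase and a chymase of mast cell granules that each hold 1 match. They are *Kit* at chr5:75574737-75574986 on the plus strand, *Cpa3* at chr3:20242182-20242431 on the minus strand and *Mcpt4* at chr14:56062311-56062560 on the minus strand, each written 5′ to 3′ along its gene with the GATA motif in capitals.
Kit: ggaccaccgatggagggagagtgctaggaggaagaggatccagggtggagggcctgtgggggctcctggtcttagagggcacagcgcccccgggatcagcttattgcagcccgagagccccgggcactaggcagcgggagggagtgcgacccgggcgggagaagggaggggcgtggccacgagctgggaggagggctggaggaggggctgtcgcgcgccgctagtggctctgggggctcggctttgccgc
Cpa3: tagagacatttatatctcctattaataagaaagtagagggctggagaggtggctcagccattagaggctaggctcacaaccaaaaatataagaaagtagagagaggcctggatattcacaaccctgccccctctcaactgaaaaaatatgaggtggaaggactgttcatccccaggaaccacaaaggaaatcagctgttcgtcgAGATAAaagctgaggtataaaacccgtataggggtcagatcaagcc
Mcpt4: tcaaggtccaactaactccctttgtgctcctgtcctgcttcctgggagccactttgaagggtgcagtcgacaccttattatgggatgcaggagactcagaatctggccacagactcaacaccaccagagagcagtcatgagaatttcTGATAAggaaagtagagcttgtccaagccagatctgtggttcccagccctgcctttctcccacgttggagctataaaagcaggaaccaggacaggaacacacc

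The GATA motif was present in 6 of the 9 members with a window, at 46 bases before the start in *Cpa3*, 103 in *Mcpt4*, 79 in *Cma1*, 92 in *Fcer1a* and 221 in *Hdc*, and at 3 places in *Ms4a2*, 224, 37 and 11 bases before the start. *Kit*, *Kitl* and *Gata2* held none. Of all 32851 promoter windows of this length, 26.5% held the motif. This share counts windows, whereas the 6 of 9 counts members, which have 11 windows. The E-box was found in *Fcer1a* alone among the members and in 17.6% of all windows. The windows of *Kit* were rich in G and C, at 70.8% against a median of 52.4% over all promoters. Those of *Kitl* and *Gata2* held 67.2 to 74%, and the windows with the GATA motif 38.8 to 51.2%. The shares with the motif were not adjusted for this. A match is a description of the letters and not of a bound site.

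*Kit* was lower in *Mkx*-/- tendons. WT replicates 1 to 3 had 125, 133 and 136 counts of it, and *Mkx*-/- replicates 1 to 3 had 24, 50 and 32. In normalized values these were 9.85, 13.1 and 10.9 CPM against 2.20, 3.51 and 2.54 CPM. The lowest WT library lay well above the highest *Mkx*-/- library, and the libraries within each genotype lay close together. The means were 11.3 ± 1.63 CPM in WT tendons and 2.75 ± 0.683 CPM in *Mkx*-/- (SD, n = 3), and the fitted log2 fold change was -2.02 with a standard error of 0.23, or -2.06 without WT replicate 3. The WT level was at the 47.8th percentile of the 14550 genes tested, so *Kit* was a gene of middling abundance in WT tendon and not one seen through a few reads. In whole tissue, fewer *Kit*-expressing cells and less *Kit* RNA per cell cannot be told apart.

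*Kitl*, the stem cell factor gene on chromosome 10 from 99478264 to 99563047 (plus strand, mm9), showed no such shift. It had 29, 22 and 41 counts in WT libraries and 17, 32 and 65 in *Mkx*-/- libraries. Its CPM were 2.28, 2.16 and 3.28 in WT and 1.56, 2.25 and 5.15 in *Mkx*-/- tendons. The *Mkx*-/- libraries fell on both sides of the WT range, with replicate 3 the highest of all 6. The log2 fold change of 0.21 with a standard error of 0.44 did not pass the test (edgeR, adjusted p = 0.824), and without *Mkx*-/- replicate 3 it turned to -0.43.

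**Figure D1:**
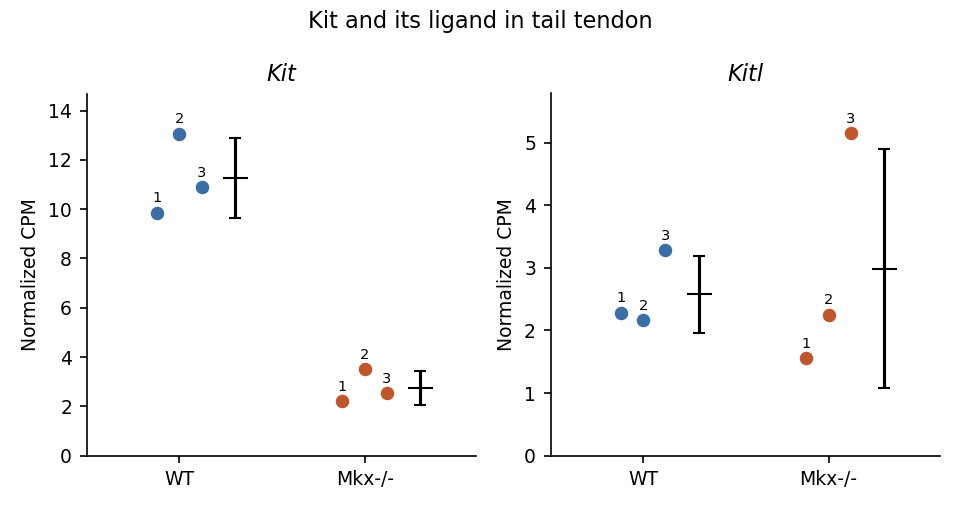
Normalized CPM of *Kit* (left) and *Kitl* (right) in each library. Points are libraries marked by replicate number, and the black bar beside each group is its mean with its SD (n = 3). *Kit* spans 9.85 to 13.1 CPM in WT tendons and 2.20 to 3.51 CPM in *Mkx*-/- tendons, whereas the *Kitl* points of the genotypes overlap.

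The plot of *Kit* and *Kitl* by library shows a gap between the genotypes for the receptor and none for the ligand. Per kilobase of exon, the WT level of *Kit* was 1.93 CPM and that of *Kitl* 0.441 CPM. In *Mkx*-/- tendons the levels were 0.472 and 0.511 CPM per kilobase, an order that did not exceed the spread between the *Mkx*-/- libraries of *Kitl*. The other 8 members, *Gata2* included, lay at or below 0.192 CPM per kilobase in both genotypes, on too few counts to be ordered.

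None of the 8 mast cell genes had fewer counts in the *Mkx*-/- libraries together than in the WT libraries together, and most were at or near 0 in WT tendons already. Of the 10 members, only *Kit* and *Kitl* passed edgeR's filter on low counts, so 0 of the 8 mast cell genes entered the test. Over all genes tested, 1.33% were called lower and 1.89% called higher, where a call needed an adjusted p under 0.05 together with a log2 change below -1 or above 1. Apart from *Kit*, 0 members were called in either direction by edgeR or by DESeq2, and *Kitl* was not among the 10.1% of genes lower or the 12.5% higher at an unadjusted p under 0.05. DESeq2 gave an adjusted p to *Kit*, *Kitl* and *Gata2* alone among the members, so the rest could not have been called. *Kit* was among the 13.6% of genes whose *Mkx*-/- libraries all lay below the WT libraries, which follows from the values it was chosen by. The reverse arrangement held for 14.6% of genes.

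Granule proteases, which mast cells make in abundance, were almost without reads. *Cpa3*, mast cell carboxypeptidase A3, on chromosome 3 from 20115516 to 20142080 (minus strand), had 0 counts in each WT library and 1, 2 and 4 in the *Mkx*-/- libraries. *Mcpt4*, the main chymase of connective tissue mast cells, had 0, 0 and 3 counts in WT and 0, 1 and 6 in *Mkx*-/- libraries. These reads came mostly from replicate 3 of either genotype. *Mcpt4*, from 56678581 to 56681147, and the related *Cma1*, from 56560290 to 56563498, both lie on the minus strand of chromosome 14.

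*Cma1*, another chymase, had 1 count in WT replicate 2, 1 in *Mkx*-/- replicate 3 and 0 elsewhere. *Tpsb2*, a granule tryptase on chromosome 17 from 25503486 to 25505804 (plus strand), had 0, 0 and 1 counts in WT and 0, 2 and 6 in *Mkx*-/- libraries. For *Tpsb2* as well, *Mkx*-/- replicate 3 held most of the reads. How reads with several matches were counted is not given in the sources used here. The coding sequence of *Tpsb2* is 76.0% identical to that of its paralog *Tpsab1*, and that of *Mcpt4* is 67.6% identical to *Cma1*, so these counts may be shared between them.

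The chains particular to the high-affinity receptor of immunoglobulin E were not detected. *Ms4a2*, its beta chain, and *Fcer1a*, its alpha chain, had 0 counts in all 6 libraries, which allows up to 3 counts in each. *Fcer1g*, the gamma chain, which macrophages and other myeloid cells also use and which was named after its values were seen, read 7.94 ± 1.83 CPM in *Mkx*-/- against 12.9 ± 2.18 CPM in WT tendons (SD, n = 3). Its log2 fold change of -0.69 did not pass the test (edgeR, adjusted p = 0.0933).

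Both remaining members had slightly more reads in the knockout. *Gata2*, a transcription factor of mast cells and blood progenitors that endothelial cells also use, had 2, 8 and 3 counts in WT and 5, 13 and 7 in *Mkx*-/- libraries. *Hdc*, histidine decarboxylase, the enzyme that makes histamine, had 1, 1 and 0 counts in WT and 3, 4 and 3 in *Mkx*-/- libraries. The genotypes overlapped for *Gata2* and did not for *Hdc*, at 4 counts or fewer throughout.

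**Figure D2:**
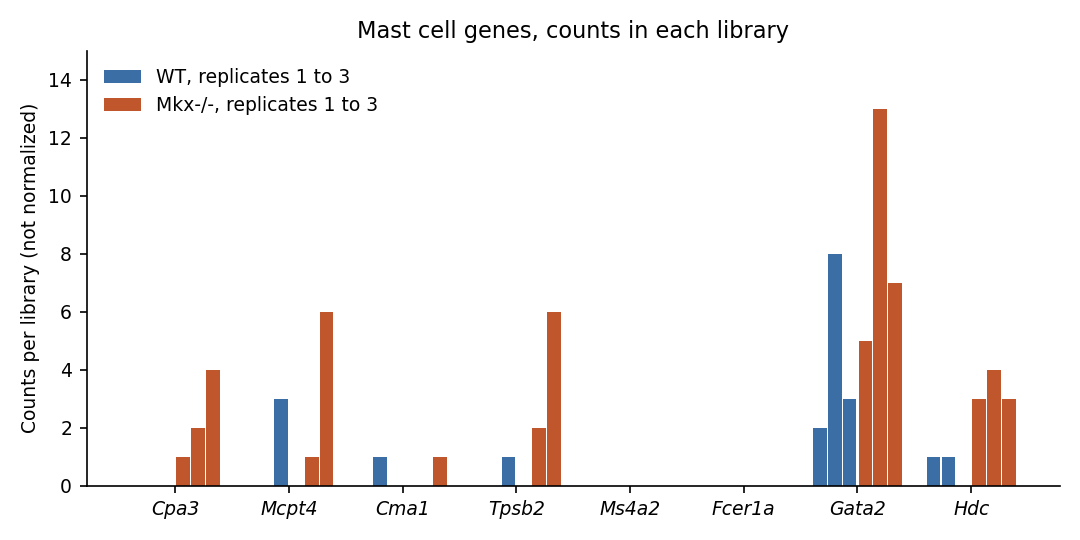
Counts per library, not normalized, of the 8 mast cell genes, with 3 WT bars and 3 *Mkx*-/- bars per gene in the order of replicate number. No bar exceeds 13 counts, *Ms4a2* and *Fcer1a* have none, and the tallest bars of *Cpa3*, *Mcpt4* and *Tpsb2* belong to *Mkx*-/- replicate 3.

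The bars of counts make plain how little RNA of mast cell genes these tendons held, and in which direction it leaned. Ratios of summed counts, *Mkx*-/- over WT, were scaled by the library sizes after TMM adjustment. The ratio was 7.49 for *Tpsb2* (exact 95% counting interval 1.004 to 332), 2.19 for *Mcpt4* (0.499 to 13.1), 4.68 for *Hdc* (0.998 to 44.0) and 1.80 for *Gata2* (0.887 to 3.83). For *Cpa3*, with 0 WT counts, a floor of 3 counts over the WT group was used, which gave a ratio of 2.19. It has no counting interval and is not a lower bound, since the 7 *Mkx*-/- counts carry an error of their own. This ratio ranged from 1.40 to 2.63 when any 1 library other than *Mkx*-/- replicate 3 was left out. Without that library *Cpa3* had 3 counts in *Mkx*-/- tendons, at the floor, and no fold is given. These intervals cover counting error only and not the spread between animals. With a filter that keeps every gene with 1 count in any library, 6 of the 8 could be fitted, and 0 passed the adjustment in edgeR. In DESeq2 only *Gata2* was given an adjusted p, of 0.767, so the rest could not have passed there. At an unadjusted p under 0.05 there were 1 in edgeR, *Cpa3*, and 0 in DESeq2. *Cpa3* entered that filter only through the *Mkx*-/- libraries, so its direction there was set by the filter and nothing is read from its fit.

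*Mkx*-/- replicate 3 decided much of this lean. The 6 genes most restricted to mast cells, *Cpa3*, *Mcpt4*, *Cma1*, *Tpsb2*, *Ms4a2* and *Fcer1a*, together had 0, 1 and 4 counts in WT libraries and 1, 5 and 17 in *Mkx*-/- libraries. Their summed ratio was 4.31 (1.602 to 14.5), and 1.69 (0.429 to 6.99) without *Mkx*-/- replicate 3. Without that library the ratio of *Mcpt4* was 0.469 (0.00893 to 5.84) and that of *Tpsb2* 2.81 (0.146 to 166). Without WT replicate 1 the summed ratio was 2.76, that of *Mcpt4* 1.40 and that of *Tpsb2* 4.80. Without WT replicate 3 the summed ratio was 13.9 and that of *Hdc* 3.03, while *Mcpt4* and *Tpsb2* had no WT count left. Against the floor of 3 counts their ratios were 1.41 and 1.62, which have no interval and are not lower bounds. For *Gata2* the ratio was 3.33 without WT replicate 2.

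Other mast cell proteases were as scarce as the members. Of 9 further protease genes of mast cells and basophils, 4 had 0 counts in every library and 0 passed the filter. *Tpsab1*, a tryptase, had 1 count in each WT library and 1, 0 and 11 in *Mkx*-/- libraries, which placed its reads in replicate 3 like those of *Tpsb2*. *Prss34* and *Ctsg* had at most 4 counts in any library.

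A further 20 genes of mast cell receptors, granules and mediators were looked at, many of them used by other cells too. Among them *Mrgprb1* and *Mrgprb2*, receptors of mast cells, *Cd200r3*, *Slc18a2* and *Tph1*, had 0 counts in all libraries. Of the 20, 14 were tested, with a median log2 fold change of -0.22 (0.03 when scaled by library size only), and 1 was called lower and 0 higher.

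The gene called was *Hpgds*, the hematopoietic prostaglandin D synthase, which mast cells share with macrophages and lymphocytes. It had 52, 61 and 76 counts in WT and 25, 30 and 16 in *Mkx*-/- libraries, without overlap. Its level fell from 5.39 ± 1.12 to 1.89 ± 0.545 CPM (SD, n = 3), a log2 fold change of -1.51 with a standard error of 0.29 (edgeR, adjusted p = 0.0259). The call was lost without WT replicate 2 or 3 or *Mkx*-/- replicate 2 or 3, where the log2 fold change kept between -1.29 and -1.603. *Hpgds* overlaps *Gm17147* on the opposite strand, and the strand setting of the counting is not given, so their reads may be mixed.

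The most abundant genes of the same list did not pass. *Cd63*, a granule membrane protein of many cells, read 110 ± 27.4 CPM in WT tendons and 102 ± 15.2 CPM in *Mkx*-/- tendons. *Ndst2*, an enzyme of heparin synthesis, had a log2 fold change of 0.05, *Srgn*, the granule proteoglycan serglycin, -0.15, and *Slc6a4*, the serotonin transporter, -0.13 (edgeR, adjusted p of 0.784 to 0.864). *Il1rl1*, the receptor of interleukin 33, which was named after its values were seen, was at 0.899 ± 0.457 CPM in WT tendons and 1.598 ± 0.200 CPM in *Mkx*-/- tendons (edgeR, adjusted p = 0.303).

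The handling of histamine could hardly be read from these libraries. Of 8 genes for its receptors, transport and breakdown, only *Hnmt* was tested, the methyltransferase that inactivates histamine. *Hnmt* read 1.74 ± 0.586 CPM in WT tendons and 0.641 ± 0.246 CPM in *Mkx*-/- tendons, lower in all 3, with a log2 fold change of -1.41 that did not pass (edgeR, adjusted p = 0.0964). *Hrh4*, the histamine receptor of blood cells, had 0 counts in all libraries.

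The relatives of KIT, the class III receptor tyrosine kinases, were better represented. Of 11 genes for these receptors and their ligands, 10 were tested, with a median log2 fold change of 0.10, and 1 was called lower and 0 higher. *Pdgfra* and *Pdgfrb*, the receptors of platelet-derived growth factors, stood at 103 ± 26.02 and 164 ± 55.3 CPM in WT tendons and at 110 ± 19.6 and 160 ± 23.1 CPM in *Mkx*-/- tendons, and neither passed the test. Per kilobase of exon, *Pdgfra* was at 15.3 CPM in WT against 1.93 CPM for *Kit*.

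*Pdgfc*, a ligand of *Pdgfra*, was the gene called. It fell from 22.1 ± 6.98 CPM to 9.45 ± 0.644 CPM (SD, n = 3), a log2 fold change of -1.23 (adjusted p = 0.0202 by edgeR). The call was lost without WT replicate 1 or 3 or *Mkx*-/- replicate 2 or 3, with log2 fold changes of -0.95 to -1.33, and the gene overlaps *Gm16000* on the opposite strand. *Csf1r*, the receptor that macrophages depend on, fell by 0.63 on the log2 scale (edgeR, adjusted p = 0.0173), from 103 ± 3.63 to 66.6 ± 3.44 CPM, less than the log2 change of 1 that a call required. Its ligand *Csf1* did not pass, at 113 ± 18.0 and 123 ± 17.2 CPM. *Flt3*, the receptor of early blood progenitors, had 3, 1 and 0 counts in WT and 0, 7 and 1 in *Mkx*-/- libraries and was not tested.

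*Kit* lies on chromosome 5 from 75970941 to 76052747 on the plus strand (build mm9, GENCODE), between 2 genes of related receptors. *Pdgfra* ends 376712 bases before it and *Kdr*, a receptor of vascular endothelial growth factor, begins 276105 bases after it. Neither neighbour moved as *Kit* did. *Pdgfra* had a log2 fold change of 0.09 and *Kdr*, at 3.39 ± 0.608 CPM in WT tendons and 5.32 ± 2.05 CPM in *Mkx*-/- tendons, of 0.65 (edgeR, adjusted p = 0.841 and 0.278).

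Genes that carry the signal of KIT inside the cell were tested in full, all 33 of them. Of these, 0 were called in either direction by edgeR or by DESeq2, while 5 had an unadjusted p under 0.05 in the lower and 6 in the higher direction. The median log2 fold change was -0.02 (0.24 when scaled by library size only, which moved the median of all genes by a similar 0.25). Short of the fold required, 3 genes passed an adjusted p under 0.05 and were named for that. *Stat5a* and *Stat5b*, transcription factors activated by KIT and many cytokine receptors, rose by log2 values of 0.73 and 0.80, and *Inpp5d*, a lipid phosphatase of blood cells that restrains this signal, fell by 0.82 on the log2 scale (edgeR, adjusted p = 0.0385, 0.0157 and 0.0485).

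*Stat5b* read 54.2 ± 6.67 CPM in WT tendons and 94.3 ± 7.75 CPM in *Mkx*-/- tendons, without overlap. *Stat5a* read 21.0 ± 0.593 and 34.9 ± 7.22 CPM and overlaps *Stat3* on the opposite strand. The 4 most abundant genes of the list did not pass. These were *Akt1*, *Mapk3*, *Pik3r1* and *Plcg1*, kinases, a kinase subunit and a phospholipase downstream of many receptors, whose log2 fold changes were -0.06, 0.37, -0.64 and -0.51 (adjusted p of 0.0722 to 0.847 by edgeR).

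Of 15 regulators of *Kit* transcription and of mast cell fate, 12 were tested, with a median log2 fold change of -0.14 (0.11 when scaled by library size only), and 0 were called by edgeR, with 3 lower and 4 higher at an unadjusted p under 0.05. DESeq2 called 1, *Runx1*, a transcription factor of blood and skeletal cells, at a log2 fold change of 1.07 in both tools (edgeR, adjusted p = 0.0611). *Runx1* read 16.9 ± 7.59 CPM in WT tendons and 35.6 ± 3.31 CPM in *Mkx*-/- tendons. *Meis1*, a homeobox factor of blood progenitors, fell by 0.87 on the log2 scale (edgeR, adjusted p = 0.0306), from 10.02 ± 1.58 to 5.48 ± 0.0813 CPM, and was named for passing the adjusted p. *Ldb1*, which joins GATA and TAL1 complexes, did not pass, with a log2 fold change of -0.15. *Gata1* had 3 counts in WT and 0 in *Mkx*-/- libraries, and *Tal1* had 1 to 11 counts per library.

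**Figure D3:**
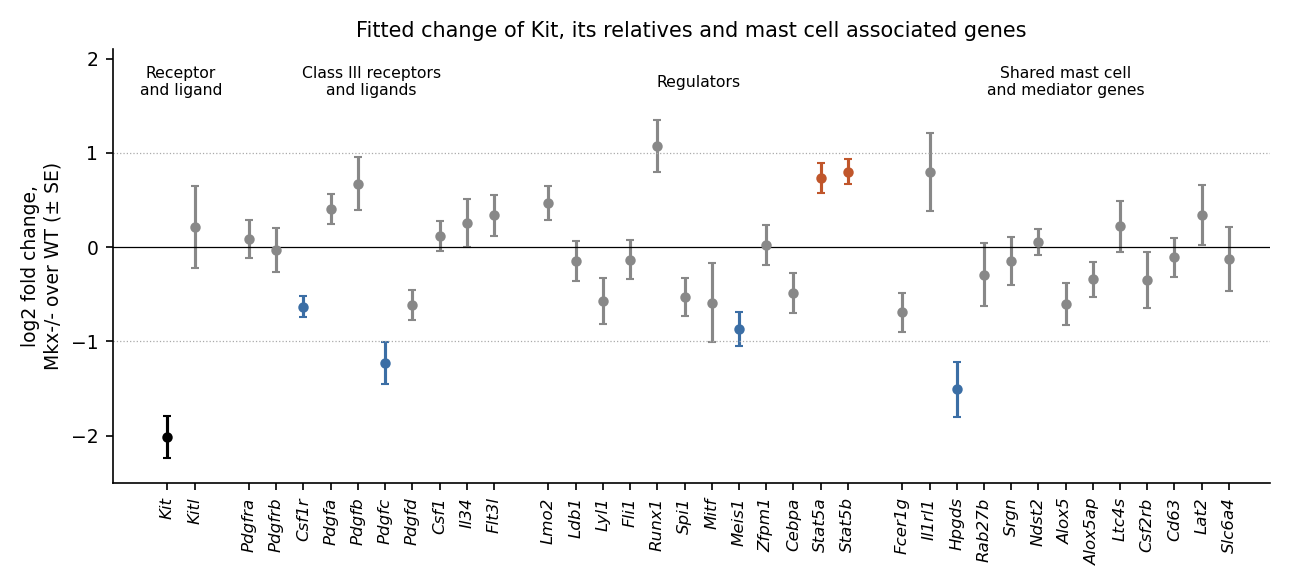
Fitted log2 fold change of *Mkx*-/- over WT with its standard error for *Kit* and *Kitl*, for the tested genes of class III receptors and ligands, for tested regulators of *Kit* and mast cell fate, and for tested genes that mast cells share with other cells. Blue (lower) and orange (higher) mark an adjusted p under 0.05, grey the rest, black *Kit*, which has no test here, and dotted lines a change of 1. *Kit* at -2.02 lies below all others drawn, of which *Hpgds* at -1.51 and *Pdgfc* at -1.23 are the lowest.

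Markers of other cells that carry KIT were examined beside it. The pigment genes *Tyr*, *Oca2* and *Gpr143* had 0 counts in every library, and *Dct* and *Mlana* at most 2. Other pigment genes had reads. *Pmel* had 16, 20 and 12 counts in the WT group and 20, 27 and 34 in the knockout group. Its log2 fold change of 0.63 did not pass (edgeR, adjusted p = 0.335). *Pmel* overlaps *Dgka* on the opposite strand, so their reads may be mixed. *Tyrp1*, not tested, had 6, 2 and 3 counts against 2, 15 and 9, with overlap. Of the 3 melanocyte genes tested, *Pmel* and *Sox10* had log2 fold changes above 0 and *Ednrb*, at -0.29, below. *Sox10*, which melanocytes share with Schwann cells, read 27.3 ± 4.56 CPM in WT tendons and 57.6 ± 22.0 CPM in *Mkx*-/- tendons (edgeR, adjusted p = 0.0660, called higher by DESeq2 alone), opposite in direction to *Kit*. Of markers of the interstitial cells of Cajal, *Ano1*, a chloride channel, had a log2 fold change of -0.04 and *Etv1*, a transcription factor, of -0.86, and neither passed (edgeR, adjusted p = 0.928 and 0.146).

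Among 7 genes of blood progenitors, *Slamf1* had 0 counts in all libraries. *Hlf*, a transcription factor of blood stem cells that other tissues also express, rose from 1.85 ± 0.146 to 6.94 ± 0.9504 CPM (SD, n = 3), a log2 fold change of 1.91 (adjusted p = 0.00307 by edgeR). *Cd34*, which vessels and fibroblasts also carry, stood at 176 ± 22.3 and 226 ± 20.7 CPM and did not pass. *Myb*, a factor of immature blood cells, had 8, 5 and 5 counts in WT and 0, 3 and 0 in *Mkx*-/- libraries and was not tested. *Cd48*, a surface protein of blood cells, was lower in all 3 *Mkx*-/- libraries with a log2 fold change of -0.998 and did not pass (edgeR, adjusted p = 0.0802).

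General markers of leukocytes and macrophages were lower in *Mkx*-/- tendons, as *Kit* was. Of 11 such genes, all had a log2 fold change below 0 under TMM, RLE and library-size scaling, 10 had an unadjusted p under 0.05, 2 passed an adjusted p under 0.05 and 1 was called lower, *Emr1*, the macrophage marker F4/80, at -1.09 (edgeR, adjusted p = 0.00921). The call of *Emr1* was lost when scaled by library size only, at -0.85, and without *Mkx*-/- replicate 2, at -0.996. The list summed to 523, 482 and 473 CPM in WT libraries and 309, 373 and 315 CPM in *Mkx*-/- libraries, without overlap, and its median log2 fold change was -0.54 against -2.02 for *Kit*. The 8 mast cell members summed to 0.236, 0.982 and 0.561 CPM in WT and 0.824, 1.55 and 2.14 CPM in *Mkx*-/- libraries. The part of leukocytes in the *Kit* difference was not tested.

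Muscle markers, some epidermal markers and some vessel markers in the dissected tendon were higher in *Mkx*-/- libraries. The 10 endothelial genes, of which 0 were called by edgeR, 2 were called higher by DESeq2 and 5 were higher at an unadjusted p under 0.05, summed to 74.8, 97.2 and 85.8 CPM in WT and 101, 106 and 149.7 CPM in *Mkx*-/- libraries, highest in *Mkx*-/- replicate 3, the library with the most counts of *Kitl*, *Cpa3*, *Mcpt4* and *Tpsb2*. The 10 skeletal muscle genes, of which 2 were called higher by edgeR, *Tnnt3* and *Tnni2*, and 5 by DESeq2, summed to 345, 32.7 and 186 CPM in WT and 2440.3, 1175 and 464 CPM in *Mkx*-/- libraries, highest in *Mkx*-/- replicate 1. The calls of *Tnnt3* and *Tnni2* were both lost in a robust fit and without WT replicate 2 or 3 or *Mkx*-/- replicate 1 or 2, with log2 fold changes of 2.20 to 3.13 in these settings. Of 10 epidermal genes, 7 were tested, of which 4 in the higher and 1 in the lower direction had an unadjusted p under 0.05. DESeq2 called 2 higher, *Perp* and *Krt14*, and 1 lower, *Trp63*. The level of *Trp63* fell from 15.5 ± 4.42 to 7.67 ± 2.88 CPM (log2 fold change -1.03, DESeq2, adjusted p = 0.0324), and edgeR did not call it (adjusted p = 0.102). By edgeR 1 was called higher, *Perp*, a protein of epithelial cell junctions. *Perp* read 1.42, 2.16 and 3.04 CPM in WT and 4.67, 7.73 and 10.8 CPM in *Mkx*-/- libraries (log2 fold change 1.81, adjusted p = 0.0323 by edgeR), and its call was lost without WT replicate 2 or 3 or *Mkx*-/- replicate 2 or 3. Their part in the values of *Kitl* and the mast cell genes was not tested.

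**Figure D4:**
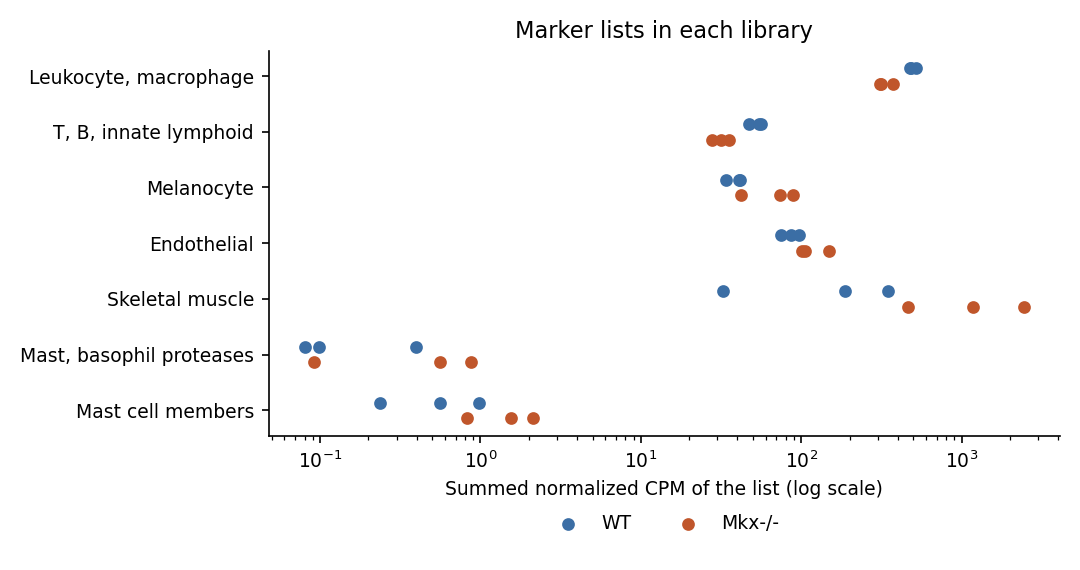
Summed normalized CPM of 7 marker lists in each library on a log axis, blue for WT and orange for *Mkx*-/- libraries. The leukocyte and lymphoid lists are lower and the melanocyte, endothelial and muscle lists are higher in all 3 *Mkx*-/- libraries. Most of the lymphoid sum is *Rora* and most of the melanocyte sum is *Sox10* and *Ednrb*, so neither sum stands for its cell type alone. Both mast cell lists lie at or below 2.14 CPM in every library.

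In the plot of marker lists, both mast cell lists lie lowest among the lists drawn. The mast cell list without *Kit* and *Kitl* held 3, 10 and 7 counts in WT and 9, 22 and 27 in *Mkx*-/- libraries, and *Gata2* gave more of them than any other gene in each genotype.

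The 5 genes whose log2 CPM ran most like that of *Kit* over the 6 libraries, out of 10294 genes averaging 5 CPM or more, were *Smyd2*, *Kcnn1*, *Gsg1l*, *Zbtb34* and *Gnpda1*, with Pearson correlations of 0.991 to 0.995. Since *Kit* splits the libraries by genotype, so do these genes. *Smyd2*, a lysine methyltransferase, changed little in size, from 45.7 to 36.7 CPM on average, while *Gsg1l* went from 56.2 to 6.23 CPM. None of the 5 is a mast cell gene of the lists used here. The 8 mast cell members and the 9 further proteases averaged below 5 CPM, so they could not have appeared and nothing is read from their absence.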

How the data were processed

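Ion Proton reads of tail tendon RNA were cleaned of adaptors and poor reads by the authors, aligned to mm9 with MapSplice and deposited as raw counts per gene symbol, not normalized. The counting program, annotation and strand setting are not given in the sources used here. All columns were matched to samples by label. Here the counts were turned into CPM and fitted in edgeR 4.0.16 under R 4.3.3 (TMM, filterByExpr, quasi-likelihood fit on genotype, prior count 0.125), with Benjamini-Hochberg adjustment over the 14550 genes tested. DESeq2 1.42.0, RLE and library-size scaling, 2 other filters (1 count in any library, or 10 in each), a robust fit, a replicate block and each library left out were alternatives. Windows before the start come from RefSeq, and mm9 coordinates from GENCODE. Ratios of low counts have exact 95% intervals.

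The members and the 18 gene lists were chosen with earlier results of these data known. Named are the members, *Mkx*, genes called in each list, up to the 4 with the highest mean CPM, and the 5 most like *Kit*. Likeness to *Cpa3* was not computed, since it had at most 4 counts. *Emr1*, *Hras1* and *Siglec5* stand in the table for newer symbols. Chi-square per degree of freedom between replicates was 7.59 to 36.4, more than counting error alone gives. It cannot tell separate animals from separate preparations of the same RNA. The analysis code recovered the changes put into simulated counts of genes past edgeR's filter. No mast cell gene among the members passed that filter, so nothing is read from the simulation for them. Single-cell data of the study were not analysed here.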

Additional observations from a re-analysis of the deposited data

How the results depend on the processing

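*Kit* was lower in *Mkx*-/- tendons under all 13 alternatives, with log2 fold changes from -2.24 to -1.75. Apart from *Kit*, 0 members were called in either direction under any of them. *Kitl* kept its direction under 12 and reversed without *Mkx*-/- replicate 3, to -0.43, while leaving out each of the other libraries gave up to 0.48. The median of the mast cell members had no value under the usual filter, where 0 were tested, nor under the settings that kept it. With the filter of 1 count in any library and in DESeq2, 6 could be fitted, but genes such as *Cpa3* entered only through the *Mkx*-/- libraries, so no median is given. In DESeq2 *Gata2* had an adjusted p of 0.767 and the other 5 none. Over all genes, 193 were called lower and 275 higher. The filter of 1 count in any library gave 322 and 541, and library size only gave 711 higher. Leaving out 1 library gave 112 to 248 lower and 103 to 321 higher. Of 104 values of the 8 other list genes called, 75 stayed past the threshold, 29 did not and 0 reversed.

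Replicate numbers did not pair the libraries, with correlations between same-numbered deviations of 0.026, -0.21 and 0.30. With the replicate block, *Kit* was at -2.04 and *Kitl* at 0.11, and 136 genes were called lower and 195 higher. The block took the calls of *Hpgds* (log2 fold change -1.52, adjusted p = 0.0702), *Tnnt3* and *Thbs4*. Counts at or near 0 limit what can be said of the mast cell genes.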

Other observations

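Eosinophils, basophils and lymphocytes, which were not described above, left few reads in these tendons. Of 9 genes of eosinophils and basophils, 0 passed the filter on low counts, and the highest was *Prg2*, the eosinophil major basic protein, with 7, 2 and 2 counts in WT and 0, 17 and 0 in *Mkx*-/- libraries. The B cell gene *Cd79a* was highest in *Mkx*-/- replicate 2 as well, at 26 counts, against 1 to 9 in the other libraries. These reads thus lay in another library than those of *Cpa3*, *Mcpt4* and *Tpsb2*, which were highest in *Mkx*-/- replicate 3. *Rora*, a nuclear receptor of innate lymphoid and many other cells, fell by 0.79 on the log2 scale (edgeR, adjusted p = 0.0143), short of the fold that a call required.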
